A study of Mus musculus with 24 samples.

Results

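Fatty acid oxidation enzymes and targets of the nuclear receptor PPAR-alpha were followed in mouse liver as a set of 35 genes, chosen by name for their roles in mitochondrial and peroxisomal beta-oxidation, the carnitine shuttle, acyl-CoA hydrolysis and the PPAR-alpha response. A probe belonged to the set where its RefSeq accession maps to 1 of these symbols, which gave 45 of the 41174 probes on the array and 35 of the 16158 genes that could be named and measured. The livers came from male C57BL/6N mice in 6 diet groups, hybridised to 24 Agilent 2-colour arrays with liver RNA in Cy5 and 1 reference RNA in Cy3. The series title concerns CIDEC, a lipid droplet protein, in alcoholic liver injury.

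The groups were ethanol diet for 10 days followed by 1 ethanol binge of 5 g/kg (3 arrays), pair-fed diet for 10 days (3 arrays), ethanol diet for 8 weeks with the 5 g/kg binge given 2 times per week (4 arrays), ethanol diet for 8 weeks with 1 such binge (5 arrays), ethanol diet for 8 weeks without a binge (5 arrays) and pair-fed diet for 8 weeks (4 arrays). They are called the 10-day binge, 10-day pair-fed, repeated-binge, 8-week binge, 8-week ethanol and 8-week pair-fed livers. The labels do not give the age of the mice or the time between the binge and tissue collection. They do not say that the arrays of a group are separate animals, so p-values measure the spread between these arrays. The reference is named as a commercial assorted mouse RNA, while its tissue field reads liver, so its makeup is uncertain.

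Beta-oxidation shortens fatty acids by removing acetyl units. A long-chain fatty acid is first activated to an acyl-CoA, carried into the mitochondrion by the carnitine shuttle, and then passed through repeated rounds of dehydrogenation, hydration, a further dehydrogenation and thiolysis. Peroxisomes run a related pathway for very long and branched chains. PPAR-alpha, encoded by Ppara, is activated by fatty acids in hepatocytes, pairs with RXR and raises transcription of many of these genes during fasting.

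All values are log2 ratios of Cy5 over Cy3 after background correction and loess normalization, and all differences are on the same log2 scale. Calls rest on an adjusted p (limma, Benjamini-Hochberg over all genes tested) under 0.05. Across arrays, 70.5% to 86.7% of probes were well above background in Cy5, and 1.34% to 7.64% of spots carried the scanner software's marks for uneven or outlying signal and were left out. Members differed in how often they were marked, with Decr2 marked on 24 arrays, Acsl1 and Hadh on 22, Crot on 19, and Etfa and Etfdh on 17. Of the 35 members, 12 were measured on all 24 arrays, 30 could be tested in at least 1 comparison, and 5 (Acsl1, Crot, Decr2, Etfdh and Hadh) in none. All 7 measured hepatocyte markers, among them Alb and Apoa1, were well above background on 24 arrays. The 8-week pair-fed, 8-week ethanol and 8-week binge arrays were scanned together, the 10-day arrays in a scan of their own, and the repeated-binge arrays in another with a different scanner and grid. The 8-week binge replicate 1 was the lowest of its group for 20 of 30 members, and the 8-week pair-fed replicate 2 for 20 of 22. In whole liver, fewer cells of a type and less RNA per cell cannot be told apart.

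The DNA element that PPAR-alpha binds with RXR is, as background, a direct repeat of the half-site AGGTCA with 1 base between the copies. This repeat was searched on both strands of RefSeq promoters (GRCm38.p6, from 250 bases before to 50 bases after each gene's start), with at most 2 mismatches over both copies. Of the members, 30 had a promoter in the table and 3 of these held a match (10.0%), against 4.40% of 27025 genes. The 3 matches are shown because they are the members in which the receptor's motif lies next to the start, with the matching bases in capitals. Etfa (chr9:55512244-55512493, minus strand) and Acot4 (chr12:84038129-84038378, plus strand) are given as the 250 bases before the start, and Slc25a20 (chr9:108662142-108662154, plus strand) as the match alone, which lies after the start.
Etfa: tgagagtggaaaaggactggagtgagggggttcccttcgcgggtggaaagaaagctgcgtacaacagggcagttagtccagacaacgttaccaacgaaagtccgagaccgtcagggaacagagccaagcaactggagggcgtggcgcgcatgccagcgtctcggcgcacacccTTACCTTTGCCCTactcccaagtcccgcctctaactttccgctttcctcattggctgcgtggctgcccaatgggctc
Acot4: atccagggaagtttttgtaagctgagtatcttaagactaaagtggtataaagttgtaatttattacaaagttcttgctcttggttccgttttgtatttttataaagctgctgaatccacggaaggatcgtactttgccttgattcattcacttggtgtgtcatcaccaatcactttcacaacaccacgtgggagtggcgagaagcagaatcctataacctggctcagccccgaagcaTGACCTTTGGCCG
Slc25a20: AGGTGAAAGGTCG
Each match carries 2 mismatches, and in Etfa and Acot4 it reads on the opposite strand. A match describes letters in this window and is not a measured binding site.

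The first comparison set 10 days of ethanol with a binge against 10 days of pair feeding. No group had 10 days of ethanol without a binge, so diet and binge cannot be told apart here. Of 27 members tested, 16 fell and 0 rose, against 7.22% of 15683 genes called, 4.32% higher and 2.90% lower. The member median was -0.64, against -0.0045 over all genes tested. The falls covered the receptor, the carnitine shuttle, the mitochondrial spiral, the auxiliary enzymes, peroxisomal thiolases and thioesterases. All 16 called members had groups that did not overlap and were lower on both slides that carried both groups, which was also true of most called genes (98.2% without overlap and 99.8% with the same direction on these slides). Over all genes tested 26.4% had groups that did not overlap. With slide as a fixed block the call was lost for 4 of the 16, Ppara (adjusted p 0.0839, limma), Acaa1a (0.0666), Acaa1b (0.0936) and Acadvl (0.0563). Without binge replicate 2 the count was 8, and without pair-fed replicate 2 it was 10.

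Ppara read 0.03, -0.21 and -0.07 in the 10-day binge livers, against 0.66, 0.78 and 0.99 in the 10-day pair-fed livers. The groups did not overlap. The difference was -0.89 ± 0.23 (SE), with an adjusted p of 0.0185 in limma. This call was lost when 1 of 4 arrays was left out in turn (both groups' replicates 2 and 3).

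Cpt1a, the carnitine palmitoyltransferase that commits long-chain acyl groups to the mitochondrion, read -0.19, 0.16 and 0.37 in the 10-day binge livers, against 0.93, 1.36 and 0.94 in the 10-day pair-fed livers. The binge values all lay below the pair-fed ones, and the level was 1.95-fold lower (log2 difference -0.96 ± 0.16, adjusted p 0.000499, limma). Slc22a5, the plasma membrane carnitine transporter, fell by 0.56. Slc25a20, the inner membrane carnitine-acylcarnitine carrier, differed by -0.46 (adjusted p 0.0970, limma), and Crat (-0.80) and Cpt2 (-0.18) also did not pass.

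In the mitochondrial spiral, Hadhb, the thiolase subunit of the trifunctional protein, read -0.10, -0.04 and 0.02 in the 10-day binge livers, against 0.53, 0.72 and 0.85 in the 10-day pair-fed livers. The groups were apart by more than their own ranges (-0.74 ± 0.11, adjusted p 0.000179, limma). Acadl, the long-chain acyl-CoA dehydrogenase, read 0.32, 0.25 and 0.28 in the binge livers, against 0.76, 1.08 and 0.94 in the pair-fed livers, again without overlap (-0.64 ± 0.12, adjusted p 0.00147, limma). Hadha, the partner subunit of Hadhb, fell by 0.61, and Acadvl, the very-long-chain dehydrogenase, by 0.47. Acads (-0.31) and the thiolase Acaa2 (-0.21) did not pass.

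The auxiliary enzymes, which prepare double bonds of unsaturated fatty acids for the spiral, fell in all 4 tested. Ech1, a dienoyl-CoA isomerase, read -0.53, -0.55 and -0.50 in the 10-day binge livers, against 0.22, 0.41 and 0.52 in the 10-day pair-fed livers. The binge arrays lay close together and well below the pair-fed ones (-0.91 ± 0.15, adjusted p 0.000786, limma). Eci2, an enoyl-CoA isomerase, read -0.30, 0.07 and 0.06 in the binge livers, against 0.57, 0.71 and 0.61 in the pair-fed livers, without overlap (-0.69 ± 0.13, adjusted p 0.00245, limma). Eci1, its mitochondrial counterpart, fell by 0.64, and Decr1, the mitochondrial dienoyl-CoA reductase, by 0.72. A second, dimmer Decr1 probe, not used for the calls, differed less, by -0.45.

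Acyl-CoA thioesterases release free fatty acid from CoA, and Acot1 and Acot3 had the widest differences of the 27 members tested with marked spots left out. Acot1, the cytosolic form, read -0.88, -0.73 and -1.17 in the 10-day binge livers, against 0.79, 1.32 and 0.97 in the 10-day pair-fed livers. The groups did not overlap, and the level was 3.88-fold lower (-1.96 ± 0.34, adjusted p 0.000688, limma). Acot3 was 5.15-fold lower (-2.36 ± 0.57), while its binge replicate 1 stood above the other binge arrays at 0.14. Acot4 (-0.66) and Acot2 (-0.096) did not pass. A second Acot4 probe, not used for the calls, differed by -1.12. These 4 thioesterase genes lie on chromosome 12 and are close relatives. Acaa1a and Acaa1b, the peroxisomal thiolases on chromosome 9, fell by 1.33 and 1.31, and their array values ran nearly side by side. Other Acaa1a probes, not used for the calls, differed less, by -0.93 and -0.81. Cross-hybridisation among these relatives was not tested. Pex11a, a peroxisome division factor, differed by -0.41, and Hsd17b4, the peroxisomal D-bifunctional enzyme, by -0.45, and neither passed. Etfb, a subunit of the electron carrier of the dehydrogenases, differed by -0.32 and did not pass.

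Vnn1, a pantetheinase induced by PPAR-alpha, fell by 0.89. With marked spots kept the difference was -0.88 and the call was lost (adjusted p 0.167, limma). None of its spots on the 10-day arrays was marked. Pdk4, the kinase that holds back glucose oxidation, read 0.08, -0.17 and -0.25 in the 10-day binge livers, against -0.36, -0.21 and -0.40 in the 10-day pair-fed livers. The groups overlapped at their edges, and Pdk4 did not pass (0.21).

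**Figure D1:**
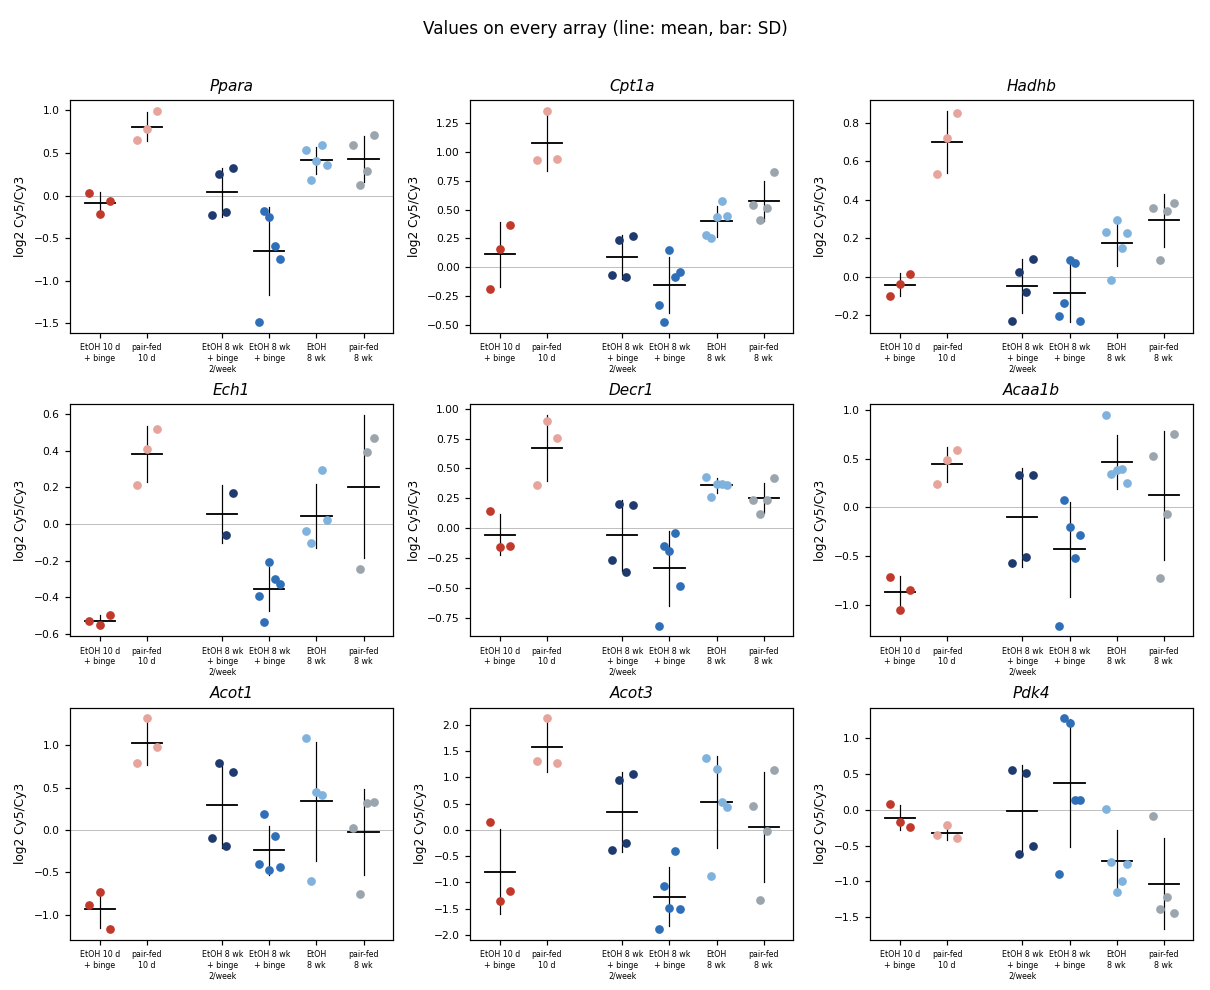
Log2 Cy5/Cy3 of 9 members on every array (points) in the 6 diet groups along the horizontal axis, with the group mean as a line and the SD as a bar. Ppara, Cpt1a, Hadhb and Ech1 lie lower in the 10-day binge livers than in the 10-day pair-fed livers without overlap, and Pdk4 runs the other way in the 8-week binge livers for all but replicate 1.

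Members lost to marked spots were read with those spots kept, an alternative in which all 35 members could be tested. In the 10-day comparison 20 then fell and 0 rose, against 7.75% of 16158 genes called. Ehhadh, the peroxisomal bifunctional enzyme and a classical PPAR-alpha target, read -1.65, -1.92 and -2.30 in the 10-day binge livers, against 0.74, 0.90 and 0.81 in the 10-day pair-fed livers. The groups lay far apart, and 2 of the 3 binge spots and all 3 pair-fed spots were marked (-2.77 ± 0.22, adjusted p 1.69e-07, limma). Acadm, the medium-chain dehydrogenase, fell by 0.78 and Crot, the peroxisomal carnitine octanoyltransferase, by 1.03. Etfdh, which passes electrons to the respiratory chain, fell by 0.68, and Decr2, the peroxisomal dienoyl-CoA reductase, by 0.39.

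**Figure D2:**
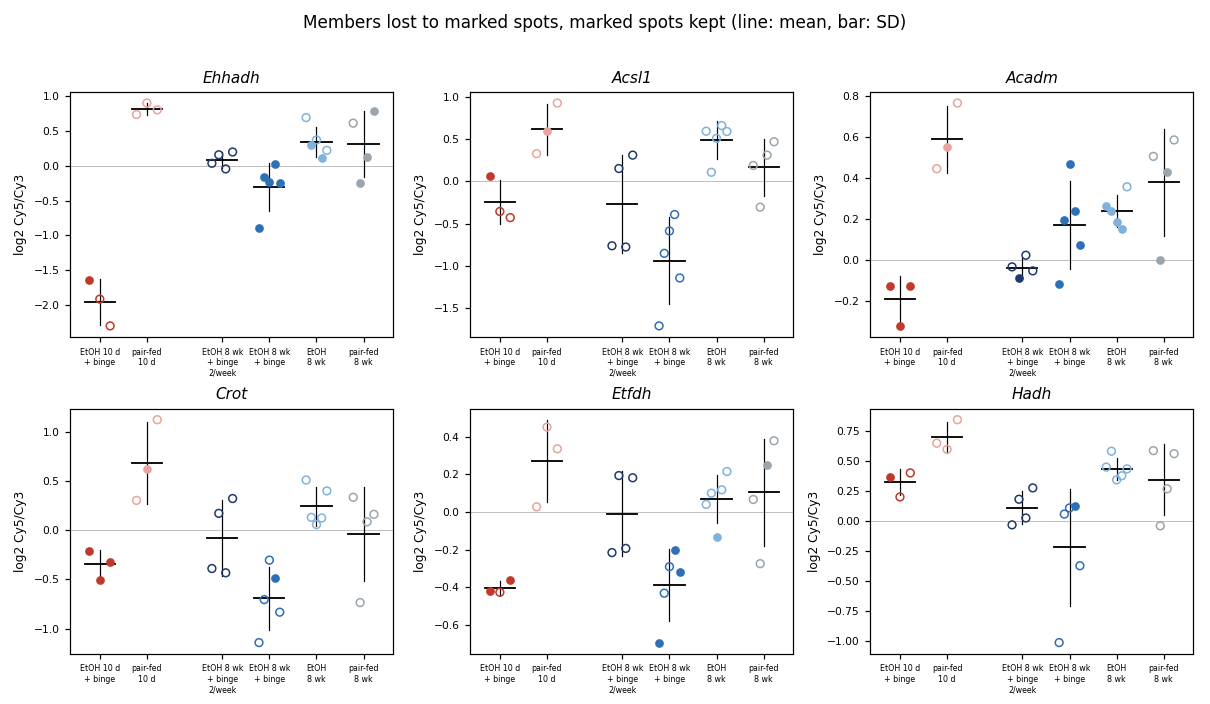
Log2 Cy5/Cy3 of 6 members with marked spots kept, in the 6 diet groups along the horizontal axis. Filled points passed the scanner software's marks, open points were marked, lines are means and bars are SDs. Ehhadh lies between -2.30 and -1.65 in the 10-day binge livers and above 0.7 in the 10-day pair-fed livers.

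Markers of other cells were read beside this comparison. Of 7 tested sinusoidal endothelial markers 4 rose, and the mean over that list ranged from 0.01 to 0.28 in the 10-day binge livers and from -0.47 to -0.26 in the 10-day pair-fed livers. Of 7 hepatocyte markers 3 rose (Fgb, Ahsg and Ttr) and none fell, with means of 0.34 to 0.76 in binge livers and -0.04 to 0.22 in pair-fed livers. Of 7 stellate cell markers 2 rose, and 1 marker each of skeletal muscle (of 4) and lymphocytes (of 6). None of the Kupffer cell (7), neutrophil (6), adipocyte (5), cholangiocyte (4) or pancreas (3) markers passed. S100a8, of neutrophils, was well above background on 11 of 24 arrays, the fewest of any tested marker. The part of these cells in the fall of the members was not tested.

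Ethanol for 8 weeks without a binge was set against 8 weeks of pair feeding. None of 26 members was called, against 0.153% of 15682 genes (0.0638% higher and 0.0893% lower). Acot2 and Acot4 had unadjusted p under 0.05, and 0 members were called in every alternative run. The member median was 0.09, against 0.0061 over all genes. For Ppara the difference was -0.01, with a 95% interval from -0.41 to 0.38, and for Cpt1a it was -0.17, with an interval from -0.45 to 0.10. For Acot3 the difference was 0.46, with an interval from -0.50 to 1.43.

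The 8-week binge livers were read in 2 comparisons, against the 8-week pair-fed and against the 8-week ethanol livers. The first differs by ethanol diet and binge together, and only the second by the added binge. Both comparisons use the same 5 binge arrays and are given side by side. Against pair-fed livers 7 of 27 members fell and 1 rose, against 16.2% of 15730 genes called, 7.53% higher and 8.68% lower. Against ethanol livers 12 of 27 fell and 1 rose, against 16.4% of 15848 genes called, 8.03% higher and 8.39% lower. The member medians were -0.26 and -0.32, against 0.024 and 0.012 over all genes. The first of these medians was -0.45 without pair-fed replicate 2 and -0.13 without pair-fed replicate 4. Ppara, Cpt1a, Acaa2, Hadhb, Decr1 and Ech1 fell in both comparisons, and Pdk4 was the 1 member that rose. Of 4 auxiliary enzymes 2 fell against pair-fed livers and 3 against ethanol livers.

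Ppara read -1.49, -0.18, -0.25, -0.60 and -0.74 in the 8-week binge livers. It read 0.53, 0.18, 0.41, 0.59 and 0.36 in the 8-week ethanol livers, and 0.59, 0.12, 0.29 and 0.71 in the 8-week pair-fed livers. Every binge array lay below every array of the other two groups. The level was 2.11-fold lower than in pair-fed livers (-1.08 ± 0.19, adjusted p 0.000340, limma) and 2.09-fold lower than in ethanol livers (-1.06 ± 0.18, adjusted p 0.000199, limma). Both calls held in every alternative run for them, including without replicate 1, the lowest.

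Cpt1a read -0.33, -0.48, 0.15, -0.08 and -0.04 in the 8-week binge livers. It read 0.28, 0.25, 0.43, 0.58 and 0.44 in the ethanol livers, and 0.54, 0.41, 0.52 and 0.82 in the pair-fed livers. The binge arrays did not overlap with either group (-0.73 ± 0.13 against pair-fed, adjusted p 0.000480, and -0.55 ± 0.13 against ethanol, adjusted p 0.00310, limma).

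The mitochondrial thiolases followed. Acaa2, the 3-ketoacyl-CoA thiolase, read -0.27, -0.59, -0.11, -0.20 and -0.11 in the binge livers. It read 0.09, 0.03, 0.11, 0.24 and 0.17 in the ethanol livers, and 0.19, 0.06, 0.20 and 0.37 in the pair-fed livers, above all binge arrays (-0.46 ± 0.10 against pair-fed, adjusted p 0.00149, and -0.38 ± 0.09 against ethanol, adjusted p 0.00413, limma). Hadhb read -0.20, -0.14, 0.09, 0.07 and -0.23 in the binge livers. It read 0.23, -0.02, 0.29, 0.15 and 0.23 in the ethanol livers, and 0.36, 0.09, 0.34 and 0.39 in the pair-fed livers, where the lowest array lay just above the highest binge array. Hadhb fell by 0.38 against pair-fed livers and by 0.26 against ethanol livers. The second call was lost in 14 of the alternatives.

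Decr1 read -0.81, -0.15, -0.19, -0.04 and -0.48 in the binge livers. It read 0.43, 0.26, 0.37, 0.37 and 0.36 in the ethanol livers, and 0.23, 0.12, 0.24 and 0.42 in the pair-fed livers. All binge arrays lay lower (-0.59 ± 0.14 against pair-fed, adjusted p 0.00570, and -0.69 ± 0.14 against ethanol, adjusted p 0.000807, limma). The second Decr1 probe, not used for the calls, differed less, by -0.28 against pair-fed and -0.30 against ethanol livers. Ech1 read -0.39, -0.53, -0.21, -0.30 and -0.33 in the binge livers. It read -0.04, -0.10, 0.29 and 0.02 on the measured ethanol arrays, and -0.25, 0.39 and 0.47 on the measured pair-fed arrays, the first of which overlapped with the binge livers. Ech1 fell by 0.56 against pair-fed livers and by 0.40 against ethanol livers, while Eci1 fell by 0.34 against ethanol livers and did not pass against pair-fed livers (-0.13). Etfa fell by 0.43 against pair-fed livers with 4 binge and 2 pair-fed arrays, a call lost with slide as a fixed block (adjusted p 0.233, limma), and Etfb, the other subunit of the electron carrier, fell by 0.32 against ethanol livers.

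Among thioesterases, Acot3 read -1.888, -1.071, -1.482, -0.409 and -1.502 in the binge livers. It read 1.36, -0.87, 1.16, 0.53 and 0.44 in the ethanol livers, and 0.46, -1.33, -0.03 and 1.14 in the pair-fed livers. The low replicate 2 of both other groups overlapped with the binge arrays. Against ethanol livers Acot3 was 3.47-fold lower (-1.80 ± 0.44, adjusted p 0.00572, limma), and against pair-fed livers it did not pass (-1.33, adjusted p 0.0540). Acot4 read -0.88, -0.24, -0.87, -0.21 and -0.47 in the binge livers, against -0.12, 0.60, 0.32 and 0.47 on the measured ethanol arrays. These groups did not overlap (-0.85 ± 0.21, adjusted p 0.00726, limma). Against pair-fed livers Acot4 differed by -0.29 and did not pass. The second Acot4 probe, not used for the calls, differed by -1.38 against ethanol livers and by -0.94 against pair-fed livers. Acaa1a and Acaa1b both fell by 0.89 against ethanol livers, and did not pass against pair-fed livers (-0.39 and -0.55). Another Acaa1a probe, not used for the calls, differed by -0.53 against ethanol livers. With slide as a fixed block Acaa1b did not pass against ethanol livers either (adjusted p 0.0515, limma).

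Pdk4 read -0.89, 1.27, 1.21, 0.14 and 0.13 in the binge livers. It read 0.011, -0.725, -1.145, -0.995 and -0.757 in the ethanol livers, and -0.09, -1.38, -1.22 and -1.44 in the pair-fed livers. Replicate 1 of the binge group lay among the low arrays, and the other 4 lay above both other groups. The level was 2.64-fold higher than in pair-fed livers (1.40 ± 0.36, adjusted p 0.00801, limma) and 2.13-fold higher than in ethanol livers (1.09 ± 0.34, adjusted p 0.0274, limma). The second call was lost in 8 of 24 alternatives, among them slide as a fixed block (adjusted p 0.0778, limma).

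With marked spots kept, 16 of 35 members fell and 1 rose against pair-fed livers (17.7% of genes called), and 17 fell and 1 rose against ethanol livers (17.4%). Acsl1, the main hepatic long-chain acyl-CoA synthetase, read -1.71, -0.85, -0.59, -0.39 and -1.14 in the binge livers. It read 0.59, 0.11, 0.51, 0.66 and 0.59 in the ethanol livers, and 0.19, -0.30, 0.31 and 0.47 in the pair-fed livers, without overlap and with every one of these spots marked (-1.10 against pair-fed, adjusted p 0.00226, and -1.43 against ethanol, adjusted p 9.89e-05, limma). Crot fell by 0.65 and by 0.94 in the same 2 comparisons, and Hadh, the short-chain hydroxyacyl-CoA dehydrogenase, by 0.56 and by 0.66.

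Beside both comparisons S100a8 and S100a9 rose, 2 of 6 tested neutrophil markers, with list means of -0.02 to 0.57 in binge livers, -0.20 to 0.14 in ethanol livers and -0.29 to -0.06 in pair-fed livers. Of 7 endothelial markers 1 rose and 2 fell in each. Of 7 hepatocyte markers 2 rose against pair-fed livers and 3 against ethanol livers, and none fell. Against pair-fed livers 2 of 6 Kupffer cell, 1 of 7 stellate cell and 1 of 4 skeletal muscle markers fell. Against ethanol livers 1 of 7 Kupffer cell and 1 of 5 adipocyte markers fell, and of 7 stellate cell markers 2 rose and 1 fell. The part of these cells was not tested.

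**Figure D3:**
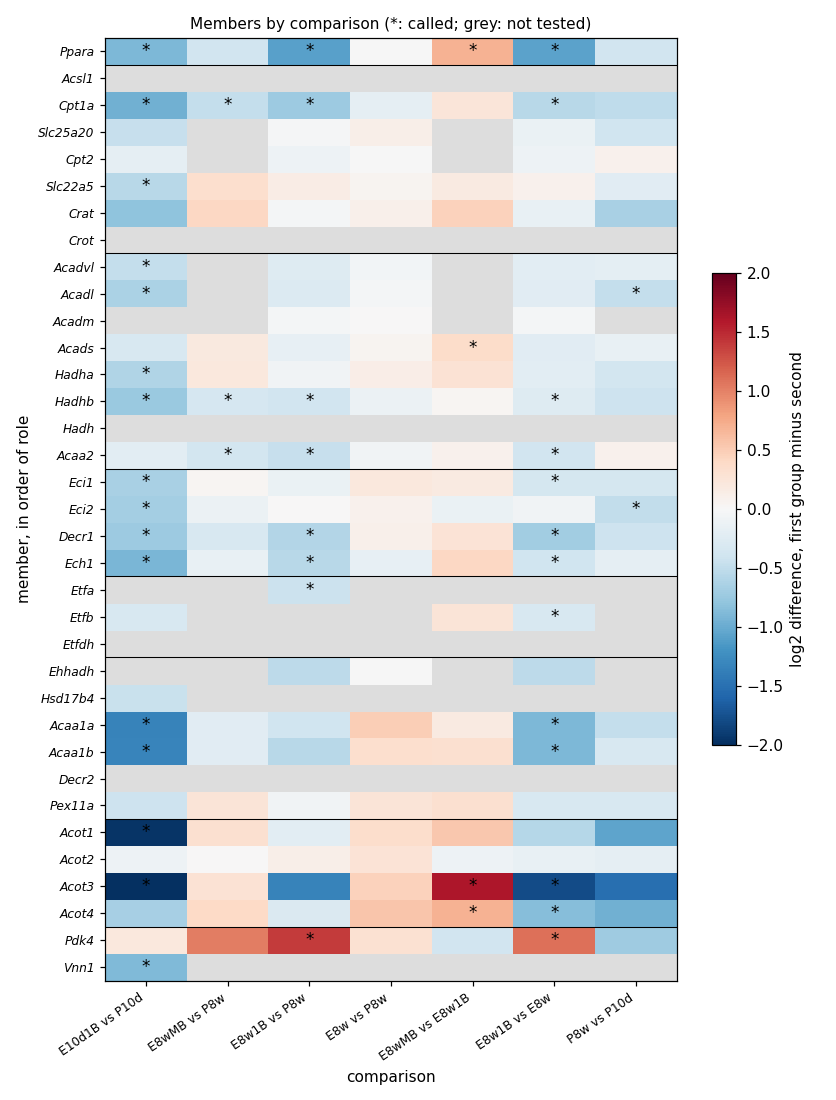
Log2 differences of the 35 members (rows, grouped by role) in 7 comparisons (columns, first group minus second), with a star for a called difference and grey where too few arrays were measured. The column of the 10-day binge livers holds 16 stars, all for lower levels, and the column of 8-week ethanol without a binge holds none.

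Feeding length was read as the difference between the 8-week and the 10-day effects of ethanol with a binge, each against its own pair-fed livers. Each effect was taken within its own scan, so feeding length and scan change together. Of 24 members 3 differed, all upward, against 3.35% of 15448 genes called, 0.939% in that direction and 2.41% in the other. Acot1 differed by 1.74 ± 0.43 (adjusted p 0.0258, limma), Eci2 by 0.70 (adjusted p 0.0254) and Slc22a5 by 0.70 (adjusted p 0.0366). Differences between the pair-fed groups enter these values. From 10 days to 8 weeks the pair-fed level differed by -1.05 for Acot1, -0.49 for Eci2 and -0.225 for Slc22a5. Acot1 read -0.40, 0.19, -0.48, -0.07 and -0.44 in the 8-week binge livers, against 0.02, -0.76, 0.32 and 0.33 in the 8-week pair-fed livers. Those groups overlapped, unlike the 10-day groups. Slc22a5 read 0.06, -0.16, 0.29, 0.14 and -0.30 in the 8-week binge livers, against 0.02, -0.42, -0.19 and 0.05 in the 8-week pair-fed livers. At 10 days it read -0.54, -0.44 and -0.43 in binge livers, against -0.14, 0.20 and 0.20 in pair-fed livers. The 8-week arrays overlapped and the 10-day arrays did not. Eci2 read 0.02, 0.02, 0.40, 0.22 and 0.09 in the 8-week binge livers, within the range of the 8-week pair-fed livers but for the highest. With marked spots kept Ehhadh differed too (2.15, adjusted p 5.05e-05). Ppara differed by -0.19 and did not pass. None of the 3 calls held in every alternative. With slide as a fixed block Acot1 and Slc22a5 lost theirs (adjusted p 0.148 and 0.0721, limma), and each was lost without the 8-week pair-fed replicate 2.

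The pair-fed groups themselves differed. Acadl read 0.40, 0.17, 0.61 and 0.61 in the 8-week pair-fed livers, against 0.76, 1.08 and 0.94 in the 10-day pair-fed livers. Eci2 read 0.16, -0.15, 0.24 and 0.31 in the 8-week pair-fed livers, against 0.57, 0.71 and 0.61 in the 10-day pair-fed livers. Neither pair of groups overlapped. The differences were -0.48 for Acadl (adjusted p 0.0300, limma) and -0.49 for Eci2 (adjusted p 0.0487, limma), the 2 of 24 members called, against 1.53% of 15562 genes (1.05% higher and 0.482% lower). The member median was -0.39, against 0.0031 over all genes. The 2 groups were scanned separately, so scan and feeding length cannot be told apart. The count went to 0 when any of 4 arrays was left out, 8-week pair-fed replicate 1 or 2 or 10-day pair-fed replicate 2 or 3.

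**Figure D4:**
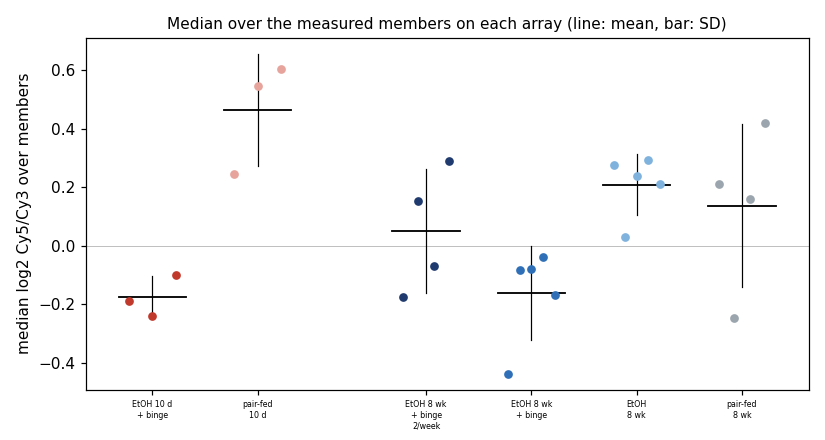
Median log2 Cy5/Cy3 over the measured members on each array (points) in the 6 diet groups along the horizontal axis, with the group mean as a line and the SD as a bar. The 10-day binge arrays lie between -0.24 and -0.10 and the 10-day pair-fed arrays between 0.24 and 0.60, while the 8-week pair-fed replicate 2 stands apart at -0.25.

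Repeated binges were set against 1 binge and against pair feeding at 8 weeks. The repeated-binge arrays are the only ones of their scan, so scan and treatment cannot be told apart. The Cy3 reference channel had a median correlation of 0.914 between this scan and that of the other 8-week arrays, against 0.982 among those other arrays. Against 8-week binge livers 4 of 21 members rose and 0 fell, against 29.4% of 15552 genes called, 12.0% higher and 17.4% lower. Against 8-week pair-fed livers 3 of 20 fell and 0 rose, against 20.5% of 15396 genes called, 8.02% higher and 12.5% lower. In either direction together, 19% and 15% of members were called, below the shares of all genes. The called members alone are too few to give a direction for the set. Called or not, 18 of 21 members lay higher than in 8-week binge livers, beside 48.7% of all genes. Their median difference was 0.28, against -0.0094 over all genes. Against 8-week pair-fed livers 11 of 20 members lay higher, beside 48.9% of all genes. The median there was 0.03, against -0.0058 over all genes.

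Ppara read -0.23, 0.25, -0.19 and 0.32 in the repeated-binge livers, which overlapped with the 8-week binge livers at their upper edge (0.69 ± 0.19, adjusted p 0.00930, limma). Acot3 read -0.37, 0.94, -0.24 and 1.05, above all 8-week binge arrays (1.61 ± 0.47, adjusted p 0.0123, limma). Acot4 rose by 0.69 and Acads by 0.37. Replicates 1 and 3 lay low and replicates 2 and 4 high for Ppara and Acot3. Pdk4 ran the other way, at 0.56, -0.61, 0.51 and -0.51.

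Cpt1a read -0.07, 0.24, -0.08 and 0.27 in the repeated-binge livers, below all 8-week pair-fed arrays. Acaa2 read -0.31, -0.04, -0.27 and -0.04, also below them, and Hadhb read -0.23, 0.03, -0.08 and 0.09, overlapping with the lowest pair-fed array. Against 8-week pair-fed livers Cpt1a fell by 0.48, Acaa2 by 0.37 and Hadhb by 0.34. The Cy3 signal of Hadhb and Cpt1a differed between these groups by 1.69 and 1.23, and in Cy5 alone both members reversed, to 1.38 and 0.75. Of 20 members tested, 3 had a Cy3 difference over 1 in size. Beside this comparison 2 of 6 neutrophil markers rose and 4 fell, and 2 of 5 adipocyte and 2 of 6 stellate cell markers fell. Of the other marker lists, 1 gene each rose among cholangiocyte, hepatocyte and endothelial markers, and 1 each fell among Kupffer cell, lymphocyte, pancreas and skeletal muscle markers. Against 8-week binge livers 4 of 7 neutrophil and 2 of 5 adipocyte markers fell, 2 of 7 endothelial markers rose and 1 fell, and each other list had 1 call or 1 in each direction. The part of these cells was not tested.

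Other genes of the pathway were read from lists of non-members. Of 16 further peroxisomal genes 7 fell in the 8-week binge livers and 1 rose against pair-fed livers, and 9 fell and 1 rose against ethanol livers, where 8.68% and 8.39% of all genes fell. Of further mitochondrial genes 3 fell and 1 rose of 13 against pair-fed livers, and 7 fell and 1 rose of 14 against ethanol livers. In the 10-day binge livers 1 of 15 peroxisomal and 3 of 14 mitochondrial genes fell, against 2.90% of all genes. Neither list had a called gene in 8-week ethanol livers without a binge.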

How the data were processed

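The scanner files hold spot intensity in Cy5 and Cy3, deposited by the authors from Agilent Feature Extraction 11.5.1.1 per the submitters' processing notes. The deposited value table holds log2 Cy5/Cy3 of the processed signals (column medians -0.088 to 0.074) and served as an alternative, as did the log10 ratio the software wrote, deposited by the authors in the scanner files. Here, limma 3.58.1 (R 4.3.3) applied normexp (offset 50) to median spot signals and loess within arrays. Marked spots were left out, probes had to be well above background on 3 arrays, and 24375 of 41174 probes were named through RefSeq accessions. Each gene was read from its brightest probe, choosing first among probes with 2 or more usable arrays per group. Ranking such probes by how many groups they covered was tried after results were seen and is given as an alternative. A gene was tested where each group had 2 measured arrays, in 1 fit over 24 arrays. The procedure was tested on simulated data. Members and lists were chosen with earlier results of these data known. Arrays give no counts, so their number limits the precision. Every member was accounted for and every called member named. A further gene list is not reported here.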

Additional observations from a re-analysis of the deposited data

Results flagged for a closer look

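In 84 checks of a group's highest or lowest array, 5 values on 4 arrays stood far from the rest of their group. That share is close to the 1 in 20 that chance gives. Hadhb read 0.0898 on 8-week pair-fed replicate 2, with the others between 0.34 and 0.39. Pdk4 read -0.0891 on 8-week pair-fed replicate 1, with the others between -1.44 and -1.22. Acaa1a and Acaa1b read 0.898 and 0.955 on 8-week ethanol replicate 1, above all other arrays of that group. Eci1 read -0.437 on 8-week binge replicate 1, with the others between -0.04 and 0.07.

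The effect of ethanol with a binge, against pair feeding, differed between 8 weeks and 10 days for Acot1 (1.74), Eci2 (0.70) and Slc22a5 (0.70). This was a test of the difference itself, and the feeding lengths were scanned separately. These members fell at 10 days (-1.96, -0.69 and -0.56) and were not called at 8 weeks (-0.22, 0.01 and 0.14).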

How the results depend on the processing

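Of 49 member calls, 9 held in every alternative and 2 reversed in 1: in Cy5 alone, Hadhb read 1.38 and Cpt1a 0.75 in repeated-binge against 8-week pair-fed livers, where the member median moved to -0.21. The members called are given here per setting, and the causes were not tested. In Cy5 alone the counts were 6 for 10-day binge against pair-fed livers (main 16), 6 for 8-week binge against ethanol livers (main 13), 8 for repeated against 1 binge (main 4), 7 for repeated binge against pair-fed livers (main 3) and 0 for the difference between feeding lengths (main 3). With median centring in place of loess they were 7, 5, 1, 3 and 0 in that order, 4 for 8-week binge against pair-fed livers (main 8) and 0 for 8-week against 10-day pair-fed livers (main 2); this scaling moved the median of all genes by -0.14 and -0.11 in the repeated-binge comparisons. With marked spots kept they were 17 for 8-week binge against pair-fed livers, 8 for repeated against 1 binge and 6 for repeated binge against pair-fed livers, with more members tested. Repeated binge against pair-fed livers gave 5 with array weights and 5 with the deposited values. The difference between feeding lengths gave 1 with slide as a fixed block and 1 with only the groups compared. The pair-fed groups gave 6 with array weights, 1 with deposited values, 1 with the mean of all probes, and 0 with only the groups compared or the software's log ratio.

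Whether the labels' replicate numbers pair the arrays was not settled (correlations of same-numbered arrays from -0.24 to 0.35). Between the 10-day groups 2 of 3 same-numbered pairs shared a slide, with correlations from 0.06 to 0.27. Slides were also shared by 3 of 4 such pairs of 8-week ethanol and pair-fed arrays, and by 3 of 5 of 8-week binge and ethanol arrays. The replicate block gave 6 for the pair-fed groups and moved no other count by over 1.5 times.

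Choosing the probe that covers the most groups, tried after results were seen, added Acsl1 (-1.03 and -1.31, both called) and Crot (-0.60, and -0.79, called) in the 8-week binge against pair-fed and ethanol livers, and Etfdh, not called.

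Leaving out each array in turn gave 8 to 16 calls for 10-day binge livers (8 without binge replicate 2, 10 without pair-fed replicate 2), 6 to 10 for 8-week binge against pair-fed livers and 9 to 13 against ethanol livers. It gave 1 to 5 for repeated against 1 binge (2 without repeated-binge replicate 2 or 8-week binge replicate 1, 1 without repeated-binge replicate 4), and 1 to 5 for repeated binge against pair-fed livers (1 without repeated-binge replicate 1, 5 without pair-fed replicate 1). It gave 0 to 5 for the feeding lengths (0 without 10-day binge replicate 1, 10-day pair-fed replicate 2 or 8-week pair-fed replicate 2, 1 without 10-day binge replicate 3, 5 without 8-week binge replicate 1) and 0 to 5 for the pair-fed groups, moving with any of their 7 arrays. The member median ranged from -0.45 to -0.13 for 8-week binge and from -0.20 to 0.10 for repeated binge, each against pair-fed livers and lowest without pair-fed replicate 2. The number of arrays and the marked spots limit the precision.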

Other observations

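Genes around the members moved in both directions. In the 10-day binge livers Cyp4a14 and Cyp4a31, omega-hydroxylases induced by PPAR-alpha, differed by -4.62 and -3.45 against 10-day pair-fed livers, both called, and Fgf21, a hepatic hormone also induced by the receptor, rose by 1.22. Of 12 such further targets tested there, 3 fell and 1 rose, against 7.22% of all genes called. In the 8-week binge livers 5 of 14 rose and 2 fell against pair-fed livers, where 16.2% of all genes were called. Cidec, the lipid droplet protein of the series title, rose by 3.25 and Plin2, a droplet coat protein, by 1.42. Fabp1, the liver fatty acid binding protein, fell by 1.27.

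Of 14 receptors and coactivators, 3 fell and 1 rose in the 10-day binge livers and 3 fell in the 8-week binge livers, each against its pair-fed livers, beside 7.22% and 16.2% of all genes called in either direction. Klf15, a fasting-related transcription factor, differed by -1.58 and -1.31 in these comparisons, both called. Of 9 further fatty acid activation genes 5 fell and 1 rose in the 8-week binge livers against pair-fed livers. Of all genes 8.68% fell and 7.53% rose there. Slc27a5, a bile acid and fatty acid ligase, differed by -0.72 and Acsl4 by 0.83. In the 10-day binge livers 0 of 10 genes of this list were called.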
